A study of Mus musculus with 2 samples.

Results

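Natural killer (NK) cells were studied in the brain of mice with a model of neuromyelitis optica spectrum disorder, 24 h into the model. They were chosen by their own transcripts, in the CD45-positive library of dissociated brain cells, so the levels of the genes used to choose them are no result. A barcode counted as an NK cell when it held at least 1000 UMIs (unique molecular identifiers, which count captured RNA molecules), at most 20% of them mitochondrial, and a UMI of at least 2 of the 4 NK receptor genes Ncr1, Klrb1c, Klrb1b and Klre1. It also had no UMI of the T cell genes Cd3d, Cd3e and Cd3g, fewer than 10 of Calca, and fewer than 40 UMIs of the microglial genes C1qa, C1qb and C1qc per 10000. This gave 129 of 7768 kept CD45-positive barcodes, or 1.66% (95% Clopper-Pearson interval 1.39 to 1.97). No barcode met the rule among 12881 kept CD45-negative barcodes, which allows a share of up to 0.0233% by a limit of 3 counts over the total (0.0286% as the upper Clopper-Pearson bound), so the 129 were also all that met it among 20649 kept barcodes in both libraries.

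The samples were brain cells of C57BL mice aged 8 to 13 weeks, of which the CD45-positive subset, that is leukocytes, and the CD45-negative rest gave 1 library each. Both subsets came from animals in the disease model, and no library of untreated animals was used here, so the values describe a state and not a response. Neither the number of mice per library nor the means of inducing the model and sorting the subsets is stated in the labels. With 1 library per group there is no test between samples, and every interval below covers counting error only.

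NK cells are innate lymphocytes that kill without prior sensitisation. They weigh signals from activating receptors, many of which have no signalling tail of their own and borrow the adaptors Tyrobp, Fcer1g, Hcst or Cd247, against inhibitory receptors that recognise MHC class I on healthy cells. Killing is done with granules that carry perforin, which opens membranes, and granzymes, which are proteases, and NK cells also bind antibody-coated targets through the Fc receptor encoded by Fcgr3. Antibody binding to astrocytes is the starting event in the human disease.

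NK cells were set beside other sets of the same library. These were 755 CD8 T cells (at least 2 Cd3 UMIs and 1 Cd8 UMI, no Cd4), which share the killing machinery, 741 CD4 T cells without Foxp3, 123 Calca-high cells and 4299 C1q-high cells. The last set, mostly microglial by its transcripts, served to show background from free RNA. The T cell and Calca-high sets had the same C1q cap as the NK set, and the T cell sets also the same Calca limit. UMIs were summed over each set and given as CPM, the usual scaling of UMIs of a gene by the total UMIs of the set, with 95% Poisson intervals. The NK cells held 767976 UMIs in all, with 1128 in the shallowest cell, a median of 4899 and 18966 in the deepest. The median was 6331 in CD8 T cells and 9267 in C1q-high cells. Between the libraries 27 barcodes were shared, 2 of them in the NK set.

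The label was checked against markers that the rule did not use. Gzmb was at 1260 CPM (1182 to 1342) and Xcl1 at 1146 CPM (1071 to 1224) in the NK set, against 18.1 and 2.79 CPM in C1q-high cells. Gzmb did not set the NK set apart from CD8 T cells, which held it at 1422 CPM. The T cell genes Cd3d, Cd3e and Cd3g were at 0 by the rule, and Trac, the constant chain of the alpha T cell receptor, was at 16.9 CPM (9.01 to 28.9) against 605 CPM in CD8 T cells. Trbc1 was at 525 and Trbc2 at 259 CPM, against 882 and 1783 CPM in CD8 T cells. Of 9 markers of type 2 innate lymphoid cells outside the rule 5 were at 0, among them Il1rl1, Areg and Il5. In CD8 T cells Il5, Il13 and Rxrg were at 0 too. The 9 summed to 82.0 CPM, against 69.3 CPM in CD8 T cells (log2 0.24, -0.17 to 0.63) and 2012 CPM in Calca-high cells. Arg1 was called higher than in CD8 T cells. The 6 B cell markers summed to 104 CPM, against 96.3 CPM in CD8 T cells, with Ms4a1 among the 2 at 0. The 4 endothelial markers summed to 62.5 against 27.2 CPM, with Cldn5 and Flt1 at 0 and Pecam1, an adhesion gene of endothelium and leukocytes, called higher than in CD8 T cells by the 2-fold rule given below (log2 1.35). The 5 astrocyte markers summed to 9.11 against 11.1 CPM, with Aqp4 and Slc1a3 at 0, and all 4 haemoglobin genes listed were at 0.

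A group of 8 barcodes went against the label. They carried H2-Aa, H2-Ab1 and Cd74, which belong to MHC class II presentation, at 73.6 to 1014 UMIs per 10000, whereas the next barcode had 17.6 and the other 120 had at most 5.90. They held 98.2% of the H2-Aa UMIs of the set and not 1 UMI of Gzma, Gzmb, Prf1 or Eomes. The lowest of them in class II, at 73.6 UMIs per 10000, did hold 22 UMIs of Ccl5, 3 of Gzmc and 1 of Xcl1. Of these 8, 7 had no UMI of Ncr1 or Klrb1c and met the rule through Klrb1b and Klre1. The summed dendritic cell markers of the set were at 1070 CPM with these barcodes and at 44.5 CPM without them, where Flt3, Clec9a, Cd209a and Ccr7 were at 0. Scrublet, which looks for barcodes that hold more than 1 cell, called none of the 129. Results are therefore given for the 129 barcodes and, for part of those that move, for the 121 without the class II-high ones, a choice made after seeing the data. In the 121, Gzma was at 5432, Prf1 at 533, Xcl1 at 1304, Ccl5 at 7604, Tyrobp at 1975 and Fcer1g at 2413 CPM. Levels below are for the 129 unless stated, and not every call that changes is given.

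**Figure D1:**
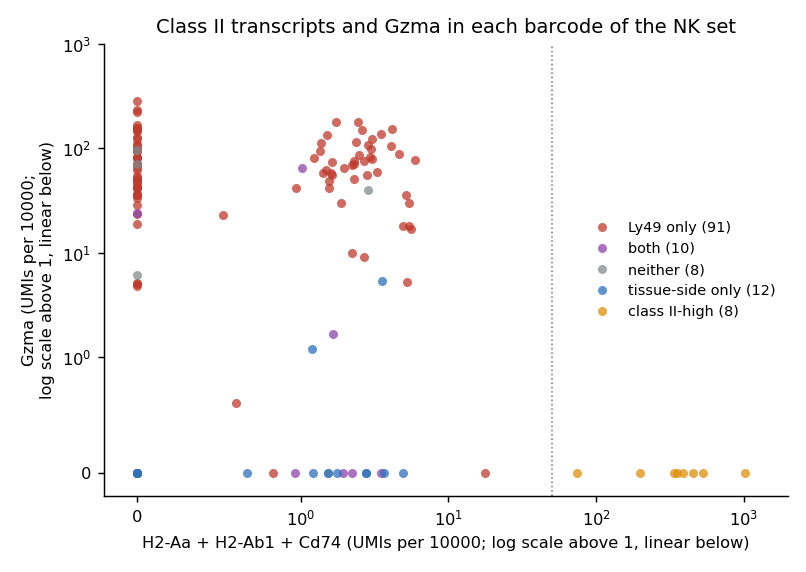
Each of the 129 barcodes of the NK set by its class II transcripts (horizontal) and Gzma (vertical), both in UMIs per 10000 on scales that are logarithmic above 1 and linear below, coloured by the groups described with the variation among cells. The 8 class II-high barcodes lie to the right of the dotted line at 50 and have no Gzma UMI.

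The 4 genes of the rule describe how the set was chosen and are no finding. Klre1 was found in 116 cells, Klrb1c in 111, Ncr1 in 86 and Klrb1b in 78, and 41 cells had all 4. Just outside the rule, 25 barcodes with at least 2 NK genes had exactly 1 Cd3 UMI, with Gzma at 2785 CPM and Trac at 43.3 CPM. A further 30 had 2 to 9 Cd3 UMIs, with Gzma at 984 CPM and Trac at 198 CPM, and Cd3g gave 110 of their Cd3 UMIs against 25 of Cd3d and 12 of Cd3e. Just inside it, the 37 cells with exactly 2 NK genes had Gzma at 2748 CPM and included 7 of the class II-high barcodes. The 99 barcodes with 1 NK gene and no Cd3 UMI had Gzma at 114 CPM, and 76 of them were class II-high.

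For gene groups, a member was called higher or lower when its CPM differed at least 2-fold between sets that together held at least 20 UMIs of it. Against CD8 T cells, 8.93% of 9809 genes so compared were higher in NK cells and 7.46% lower, with a median log2 ratio of 0.11. TMM scaling lowered each log2 ratio by 0.19 and the median of ratios lowered it by 0.20. Calls on the higher side then made up 39.5% and 38.6% of all calls, against 54.5% with scaling to total UMIs. Against CD4 T cells 8.62% of genes were higher and 7.96% lower, and against Calca-high cells 16.0% and 7.59%. These shares are the background for every count below.

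**Figure D2:**
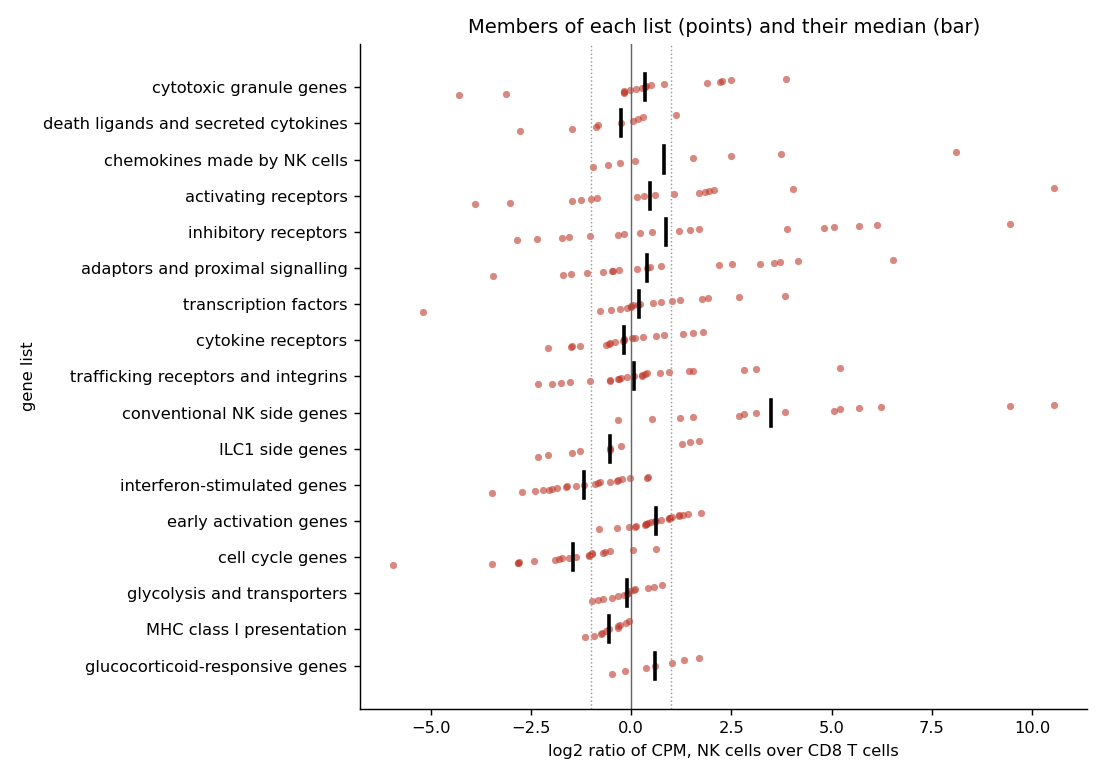
Log2 ratio of CPM, NK cells over CD8 T cells, for each compared member (points) of 17 gene lists, with the list's median as a black bar and dotted lines at 2-fold. Conventional NK side genes have the median furthest to the right, 3.48, and cell cycle genes the one furthest to the left, -1.47.

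The killing machinery of NK cells leaned on granzyme A and perforin. Of 17 compared granule genes 5 were higher than in CD8 T cells (Gzma, Gzmc, Prf1, Serpinb9 and Serpinb6b), 2 were lower (Gzmk and Gzmm) and 10 lay between, with a median log2 ratio of 0.34. Summed, the list was at 12032 CPM in NK cells and 7168 CPM in CD8 T cells, a log2 ratio of 0.75 (0.71 to 0.78), or 0.92 without class II-high barcodes. Gzma alone, at 4767 against 852 CPM, made up most of the gap between these sums, and the other members summed to closer levels. Against CD4 T cells 9 of 16 were higher and 1 lower, and against Calca-high cells 11 of 15 were higher and 0 lower.

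Gzma (ENSMUSG00000023132; mm10 chromosome 13, 113093825 to 113100981, minus strand) encodes a tryptase-like granzyme. Its level per cell ran from 0 through a median of 44.2 to 286 UMIs per 10000. Summed, it was at 4767 CPM (4614 to 4924) in NK cells, 852 CPM in CD8 T cells and 31.4 CPM in CD4 T cells, which put it 5.59-fold above CD8 T cells (log2 2.48, 2.42 to 2.55). With every cell thinned to 1000 UMIs a Gzma UMI was found in 68.2% of NK cells, 21.1% of CD8 T cells and 1.58% of C1q-high cells, and unthinned in 75.2% of NK cells.

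Prf1 (ENSMUSG00000037202; mm10 chromosome 10, 61297833 to 61304680, plus strand) encodes perforin. It was at 467 CPM (420 to 518) in NK cells and 97.4 CPM in CD8 T cells (log2 2.26, 2.06 to 2.46). Per cell it ran from 0 through a median of 2.83 to 22.2 UMIs per 10000. Serpinb9, which inhibits granzyme B inside the killer cell, was at 366 against 99.3 CPM, and its relative Serpinb6b at 487 against 106 CPM. Levels of Gzmb differed little between the sets, at 1260 CPM against 1422 CPM in CD8 T cells, and at 1436 CPM without class II-high barcodes. Nkg7, a granule membrane protein gene, was at 2087 against 2366 CPM, and Ctsw, a cathepsin gene, at 596 against 611 CPM. Gzmk went the other way, at 9.11 CPM (3.66 to 18.8) in NK cells and 180 CPM in CD8 T cells, as did Gzmm with 2 UMIs, 2.60 CPM, against 22.7 CPM (log2 -3.12, -6.18 to -1.24).

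Granzyme C was found in few cells. Gzmc was at 294 CPM in NK cells and 20.2 CPM in CD8 T cells, but 97.3% of its 226 UMIs lay in 10 cells and it was found in 13 cells. The highest cell alone held 80. Gzmd and Gzme had no UMI in either set. Reads of the granzyme genes next to Gzmb may be split between near-identical copies, so Gzmc is uncertain.

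**Figure D3:**
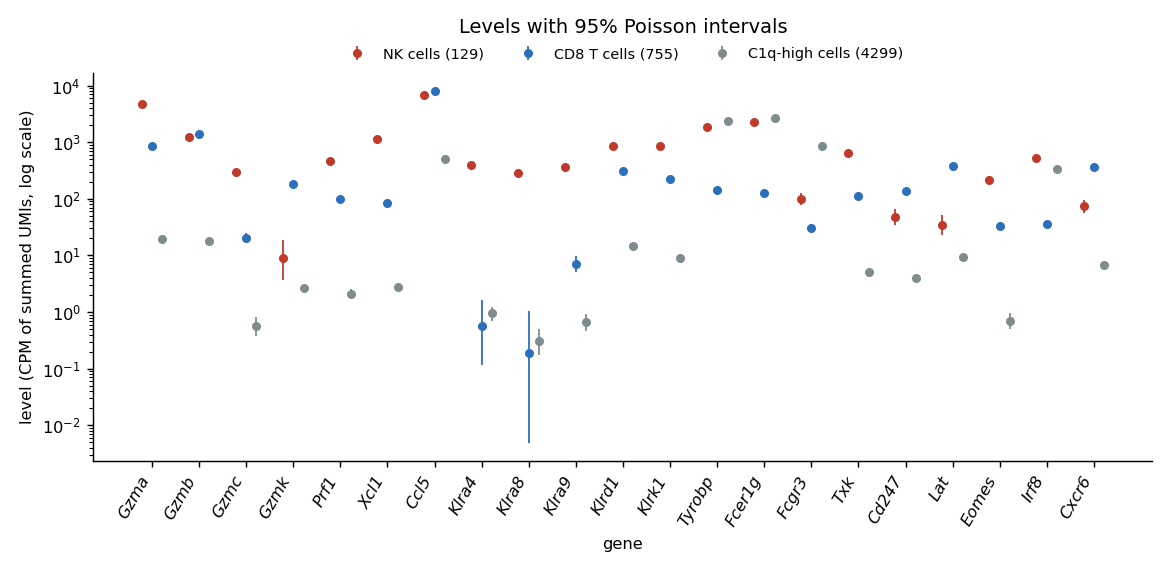
Levels in CPM on a log scale, with 95% Poisson intervals, of 21 effector, receptor, adaptor, transcription factor and trafficking genes in NK, CD8 T and C1q-high cells (numbers of cells in the legend), where points at 0 are not drawn. Gzma, Prf1, Xcl1 and the Klra genes sit highest in NK cells, Gzmb and Ccl5 lie close to CD8 T cells, and Tyrobp and Fcer1g lie near C1q-high cells.

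The region before the start of 4 NK cell genes is shown because 3 of them, Gzma, Prf1 and Xcl1, are effector genes higher in NK than in CD8 T cells, and Ncr1 is a defining receptor gene of the cell type that the rule used. Each line gives the 250 bases before the RefSeq start of the gene, on the strand of the gene, in GRCm38. Capitals mark matches on either strand to the core bound by RUNX factors, TGTGGT, and to the core bound by T-box factors, GGTGTG, the family of Eomes and Tbx21. The windows are chr13:113100982-113101231 (minus strand), chr10:61297586-61297835 (plus), chr1:164935523-164935772 (minus) and, for the first of 2 Ncr1 entries, chr7:4337465-4337714 (plus).
Gzma: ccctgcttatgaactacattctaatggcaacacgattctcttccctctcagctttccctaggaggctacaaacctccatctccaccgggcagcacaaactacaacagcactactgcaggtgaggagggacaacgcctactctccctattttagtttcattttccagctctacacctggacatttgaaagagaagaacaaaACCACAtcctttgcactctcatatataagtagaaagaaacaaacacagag
Prf1: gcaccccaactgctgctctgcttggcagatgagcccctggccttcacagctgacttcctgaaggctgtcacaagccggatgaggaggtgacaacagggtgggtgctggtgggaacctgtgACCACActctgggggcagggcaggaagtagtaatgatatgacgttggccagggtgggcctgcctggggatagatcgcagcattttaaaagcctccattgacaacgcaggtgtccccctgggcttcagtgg
Xcl1: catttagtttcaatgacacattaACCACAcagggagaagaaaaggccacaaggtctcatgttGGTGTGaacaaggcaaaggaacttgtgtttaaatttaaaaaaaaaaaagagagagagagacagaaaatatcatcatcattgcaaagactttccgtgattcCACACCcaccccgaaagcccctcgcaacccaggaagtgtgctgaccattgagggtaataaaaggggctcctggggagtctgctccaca
Ncr1: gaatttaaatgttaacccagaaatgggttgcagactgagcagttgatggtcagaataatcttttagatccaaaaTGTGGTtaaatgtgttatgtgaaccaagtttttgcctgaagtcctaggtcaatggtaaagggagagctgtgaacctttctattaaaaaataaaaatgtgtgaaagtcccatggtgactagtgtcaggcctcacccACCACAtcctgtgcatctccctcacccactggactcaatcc
The RUNX core was present 1 time in the Gzma, Prf1 and Xcl1 windows and 2 times in the Ncr1 window, and in 14.0% of all 32851 windows of this length. The T-box core was present 2 times in the Xcl1 window, in none of the other 3, and in 16.3% of all windows. A match is a description of letters and does not show that a factor binds there. Of the factors that bind these cores, Runx3 was at 320 CPM in NK cells and 322 CPM in CD8 T cells, Tbx21 at 85.9 against 51.6 CPM and Eomes at 216 against 33.6 CPM.

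Among chemokines, Xcl1 stood apart. It encodes lymphotactin, which attracts Xcr1-bearing dendritic cells, and was at 1146 CPM in NK cells and 86.1 CPM (78.4 to 94.4) in CD8 T cells, 13.3-fold apart (log2 3.73, 3.57 to 3.90). It was uneven across cells: 66 cells had a UMI, 70.3% of the 880 UMIs lay in 10 cells, and the highest cell held 212. After thinning, 30.2% of NK cells, 5.43% of CD8 T cells and 0.419% of C1q-high cells had an Xcl1 UMI. Its receptor gene Xcr1 had 120 UMIs in 52 kept barcodes of the library, of which 92, or 76.7%, lay in the 391 class II-high barcodes outside the NK set.

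Of 8 compared chemokines 4 were higher than in CD8 T cells (Xcl1, Ccl3, Ccl4 and Ccl1) and 0 lower, with a median log2 ratio of 0.81. Under TMM Cxcl2 passed on the lower side. Ccl3 and Ccl4, inflammatory chemokines, were at 292 and 776 CPM against 51.6 and 268 CPM. Both were uneven across cells, with 76.8% of 224 Ccl3 UMIs and 64.9% of 596 Ccl4 UMIs in the 10 highest cells. C1q-high cells held Ccl3 and Ccl4 at 304 and 723 CPM, and the part of free RNA from those cells was not tested. Ccl5, which attracts T cells, was abundant in both killer sets, at 6711 CPM in NK cells and 8136 CPM in CD8 T cells, and 5154 UMIs were spread over 122 of the 129 NK cells. All 40 Ccl1 UMIs came from 1 cell.

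Secreted cytokines and death ligands were mostly like those of CD8 T cells or below them. Of 9 compared, Tgfb1 was higher, at 177 against 81.0 CPM, Lta and Ltb were lower, and the median was -0.27. Tgfb1 no longer passed 2-fold under TMM or the median of ratios, where 0 were higher and 4 lower. Under TMM the added lower ones were Csf1 and Il2. Csf1 was also lower without class II-high barcodes. Ltb, which encodes lymphotoxin beta, was at 286 CPM (250 to 327) against 805 CPM. Ifng, the main cytokine of activated NK cells, was at 70.3 CPM (52.8 to 91.7) against 57.8 CPM (log2 0.28, -0.16 to 0.70), and was found in 35 cells. Fasl, the death ligand, was at 102 against 89.9 CPM (log2 0.18, -0.19 to 0.52), and both of these intervals span 0. Csf2, with 5 UMIs, was at 6.51 CPM against 475 CPM in Calca-high cells.

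Activating receptors divided into a group higher and a group lower than in CD8 T cells. Of 16 compared, 7 were higher (Klrk1, Cd244a, Fcgr3, Klrc2, Klra8, Cd7 and Tnfrsf9) and 5 lower (Cd226, Slamf6, Cd2, Tnfrsf4 and Icos), with a median of 0.46. Without class II-high barcodes Cd2 no longer passed 2-fold, and under TMM Tnfrsf9 did not, while Crtam passed on the lower side. Klrk1 encodes NKG2D, which sees stress ligands, and was at 855 CPM (791 to 923) against 223 CPM. It was found in 122 of 129 cells. Cd244a, the receptor of Cd48, was at 135 against 8.31 CPM. The receptors lower in NK cells included the costimulators Icos, at 9.11 against 136 CPM, and Tnfrsf4, with 2 UMIs, at 2.60 against 21.2 CPM (log2 -3.02).

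Fcgr3 encodes the receptor through which NK cells kill antibody-coated targets. It was at 100 CPM (79.1 to 125) in NK cells, 31.0 CPM (26.4 to 36.1) in CD8 T cells and 850 CPM in C1q-high cells. As a share of the C1q-high level this was 11.8% in NK cells and 3.65% in CD8 T cells. The part of free RNA from C1q-high cells in this level was not tested. Fcgr3 was at 113 CPM without class II-high barcodes. Other Fc receptor genes were lower than in C1q-high cells: Fcgr1 was at 31.3 CPM against 470 CPM, or 6.65% of that level, Fcgr2b at 19.5 against 265 CPM, or 7.36%, and Fcgr4 at 6.51 against 149.8 CPM, or 4.35%.

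The Ly49 family, encoded by the Klra genes on chromosome 6, gave 5 of the 15 largest ratios to CD8 T cells. Klra8 (Ly49H; ENSMUSG00000089727, mm10 chromosome 6, 130115226 to 130129898, minus strand) was at 285 CPM (249 to 326) in NK cells and had 1 UMI in CD8 T cells, 0.189 CPM (log2 10.56, 8.07 to 15.87). Klra4 (Ly49D; 130043731 to 130067271, minus strand) was at 400 CPM (356 to 447) against 0.567 CPM from 3 UMIs (log2 9.46, 7.90 to 11.75). Both are activating receptors that signal through Tyrobp, although Klra4 had been placed in the list of inhibitory receptors. Klra9 (Ly49I) was at 366 against 7.18 CPM, Klra7 (Ly49G) at 270 against 8.12 CPM, Klra1 (Ly49A) at 95.1 against 6.42 CPM and Klra3 (Ly49C) at 79.4 against 2.83 CPM. The Klra genes are near-identical in parts, so reads may be shared among them and the level of any single member is uncertain.

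Single cells carried different Ly49 sets. Of 8 Ly49 genes counted, 28 cells had none, 18 had 1, 35 had 2, 24 had 3, 19 had 4 and 5 had 5. The 28 include the 8 class II-high barcodes, and without these 20 of 121 had none. Klra4 and Klra8 were found together in 32 cells, Klra4 alone in 22 and Klra8 alone in 16. Since most cells held few UMIs of each gene, a gene that was not found in a cell may still have been expressed there.

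Of 18 compared genes in the inhibitory list 9 were higher than in CD8 T cells and 5 lower, with a median of 0.86. The list summed to 2734 CPM against 969.5 CPM, a log2 ratio of 1.50 (1.42 to 1.57), or 1.65 without class II-high barcodes. This sum includes Klra4, so it is not one of inhibitory receptors alone, and the role of the other members was not tested. Those higher were 6 Klra genes, Klrd1, Klri2 and Cd200r1. Klrd1, the CD94 partner of NKG2 receptors, was at 859 against 310 CPM, and Klrc1, the inhibitory NKG2A chain, at 250 against 213 CPM (log2 0.23). Those lower were Cd96 and the checkpoint genes Pdcd1, Lag3, Havcr2 and Ctla4. Pdcd1 was at 20.8 CPM (11.9 to 33.8) against 107 CPM in CD8 T cells and Lag3 at 14.3 against 47.2 CPM. Klra6, with 6 UMIs in NK cells, fell short of 2-fold under the median of ratios.

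Of 19 compared adaptors and proximal signalling genes, 7 were higher than in CD8 T cells (Tyrobp, Fcer1g, Syk, Lat2, Sh2d1b1, Plcg2 and Txk) and 4 lower, among them Cd247, Lck and Lat, and 8 lay between, with a median of 0.40. The list summed to 6742 CPM against 3172 CPM, a log2 ratio of 1.09 (1.04 to 1.13), or 1.19 without class II-high barcodes, where Lck no longer passed 2-fold. Tyrobp, at 1866 CPM, and Fcer1g, at 2249 CPM, made up most of the sum in NK cells. Without them the sum would be lower in NK than in CD8 T cells, so its direction rests on this pair and not on the whole list.

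Tyrobp (DAP12; ENSMUSG00000030579, mm10 chromosome 7, 30413760 to 30417585, plus strand) carries the signal of Ly49D and Ly49H. It was at 1866 CPM (1771 to 1965) in NK cells and 143 CPM in CD8 T cells (log2 3.71, 3.58 to 3.84). Fcer1g (ENSMUSG00000058715; mm10 chromosome 1, 171229572 to 171234365, minus strand), the adaptor of Fcgr3 and Ncr1, was at 2249 CPM (2144 to 2357) against 126 CPM (log2 4.16, 4.03 to 4.29). A Fcer1g UMI was found in each of the 129 barcodes, with a lowest value of 1.64, a median of 22.97 and a highest value of 69.1 UMIs per 10000. C1q-high cells also carried both genes, at 2351 and 2737 CPM. NK cells reached 79.4% and 82.2% of those levels and CD8 T cells 6.06% and 4.60%.

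Cd247, the zeta chain of the T cell receptor complex and an adaptor of Fcgr3 and Ncr1 as well, was at 48.2 CPM (33.9 to 66.4) against 137 CPM. Hcst (DAP10), the adaptor of NKG2D, was at 458 against 744 CPM. Among kinases, Txk was at 639 against 112 CPM and was found in 117 cells, and Syk at 46.9 against 3.97 CPM. Of the kinases of T cell receptor signalling, Lck was at 212 against 457 CPM. Zap70, at 65.1 against 90.1 CPM, did not pass 2-fold. Of the scaffold pair, Lat was at 35.2 against 387 CPM and Lat2 at 147 against 15.9 CPM. Sh2d1b1 (EAT-2), which couples Cd244a to activation, was at 35.2 CPM and had 2 UMIs in CD8 T cells (log2 6.54, 4.55 to 9.66). Since T cells were taken for Cd3 and NK cells for its absence, low T cell receptor signalling genes partly restate the choice of sets.

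Of 18 compared transcription factors 6 were higher than in CD8 T cells (Eomes, Nfil3, Zeb2, Irf8, Klf2 and Bhlhe40) and 1 lower (Bcl11b), with a median of 0.19. Under TMM that median was 0.00 and Bhlhe40 did not pass. Eomes, a T-box factor of mature NK cells, was at 216 CPM (185 to 252) against 33.6 CPM (log2 2.68, 2.37 to 3.00), and was found in 73 cells. Irf8 was at 525 against 36.6 CPM, and at 339 CPM in C1q-high cells. Klf2, which controls exit from tissue, was at 538 against 143 CPM. Bcl11b, a factor of T cell commitment, was at 7.81 CPM (2.87 to 17.0) against 289 CPM. Tbx21, the other T-box factor, was at 85.9 against 51.6 CPM (log2 0.74, 0.33 to 1.13).

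Circulating, or conventional, NK cells and tissue-resident type 1 innate lymphoid cells (ILC1) share Ncr1 and Klrb1c and differ in other genes. Of 14 compared genes of the conventional side 12 were higher in NK than in CD8 T cells and 0 lower, with a median of 3.48. This list shares Eomes, Irf8, Zeb2, 4 Klra genes, S1pr5 and the integrins, among others, with the lists above and below. The 2 between were Klrg1 and Cx3cr1. Itga2, an integrin chain, was at 82.0 against 9.44 CPM, S1pr5 at 35.2 against 0.944 CPM and Itgam at 96.4 against 33.2 CPM. Cma1, a chymase gene, had 33 UMIs in 19 NK cells and 0 in CD8 T cells, which makes it at least 75.8-fold higher when 3 UMIs over the CD8 T cell set are taken as the floor. On the ILC1 side 3 of 10 were higher (Tmem176a, Tmem176b and Cd200r1) and 4 lower (Cxcr6, Il7r, Ltb and Il21r), with a median of -0.54. Against CD4 T cells the conventional side had 13 of 14 higher and the ILC1 side 0 higher and 5 lower of 10. Both comparisons are with T cells and not with an ILC1 set, so these ratios cannot tell conventional NK cells from ILC1.

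Receptors for cytokines and for movement were mixed. Of 19 cytokine receptor genes 3 were higher (Il2rb, Il12rb2 and Il18rap) and 4 lower (Il7r, Il15ra, Il21r and Il27ra), with a median of -0.18. Il2rb, the chain that NK cells use to sense interleukin 15, was at 793 CPM (731 to 859) against 271 CPM, and Il7r at 56.0 against 235 CPM. Of 23 trafficking genes 5 were higher, among them S1pr5, Itga2, Itgam and Itgax, and 5 lower (Cxcr3, Cxcr6, Ccr7, S1pr1 and Cd69), with a median of 0.07, or -0.13 under TMM. Without class II-high barcodes Cd69 no longer passed and Cxcr4 passed on the higher side. Cxcr3, which follows interferon-induced chemokines, was at 70.3 against 235 CPM, and Cxcr6 at 74.2 against 371 CPM. Ccr2, the receptor of monocyte-attracting chemokines, was at 415 against 252 CPM.

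The cells differed among themselves in effector genes and along the conventional to ILC1 axis. With each cell thinned to 1000 UMIs and the class II-high barcodes left out, the genes with the largest Fano factor (variance over mean) were Ccl5 at 12.7, Malat1 at 12.3 and Gzma at 6.93, followed by mt-Co3 at 6.58 and Xcl1 at 6.06. Ccl4 had 4.63 and Gzmb 3.14, against a median of 1.22 over 293 genes. With all 129 barcodes H2-Ab1 led at 23.6 and Cd74 at 22.5, and 97.5% and 97.1% of their UMIs lay in the class II-high barcodes.

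To describe this spread, the 121 cells were sorted by whether they had a UMI of a Ly49 gene and of at least 2 of the ILC1-side genes Cxcr6, Il7r, Tmem176a and Tmem176b. These groups were defined after the values of single cells had been seen, and they are described without a test. A Ly49 gene without the ILC1-side pair was found in 91 cells, both in 10, neither in 8, and the ILC1-side genes without Ly49 in 12. Gzma was found in 88 of the 91 Ly49 cells, at 7057 CPM, and in 2 of the 12 ILC1-side cells, at 50.8 CPM from 4 UMIs. Leaving out the highest Gzma cell gave 6798 CPM in the Ly49 cells and 13.7 CPM in the ILC1-side cells. Eomes was found in 67 of 91 against 2 of 12, Klf2 in 65 against 1 and Itga2 in 42 against 1. The ILC1-side cells instead had Ltb in 11 of 12, Rora in 9 and Thy1 in 9, where the Ly49 cells had them in 34, 5 and 30 of 91. Ncr1 was found in 65 of 91 and 9 of 12, and Fcer1g in every cell of both groups. The median was 4766 UMIs in the Ly49 cells and 6114.5 in the ILC1-side cells.

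Sums over the small groups rested on 1 or 2 cells. In the 10 cells with both kinds of gene Gzmb was at 3569 CPM, against 1314 CPM in Ly49 cells, 1427 CPM in cells with neither and 610 CPM in ILC1-side cells. Of the 211 UMIs of Gzmb in those 10 cells 91 came from 1 cell and 71 from another. The other 8 cells came to 1258 CPM, and the Ly49 cells without their 2 highest Gzmb cells to 1081 CPM. Xcl1 was at 4550 CPM in the cells with both, against 872, 3027 and 699 CPM in the other groups in the same order. A single cell held 212 of its 269 UMIs there, and the other 9 came to 1168 CPM. The same cell held 122 of 136 Ccl4 UMIs, so that Ccl4 was at 2300 CPM with it and at 287 CPM without it. In Ly49 cells Ccl4 was at 833 CPM, or at 733 CPM without the highest cell. Without the highest Xcl1 cell of each group, Xcl1 was at 2089 CPM in the cells with neither, 607 CPM in Ly49 cells and 610 CPM in ILC1-side cells. Gzma was found in 3 of the 10 cells with both and in 4 of the 8 with neither. These values without the highest cells were added after seeing the data.

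**Figure D4:**
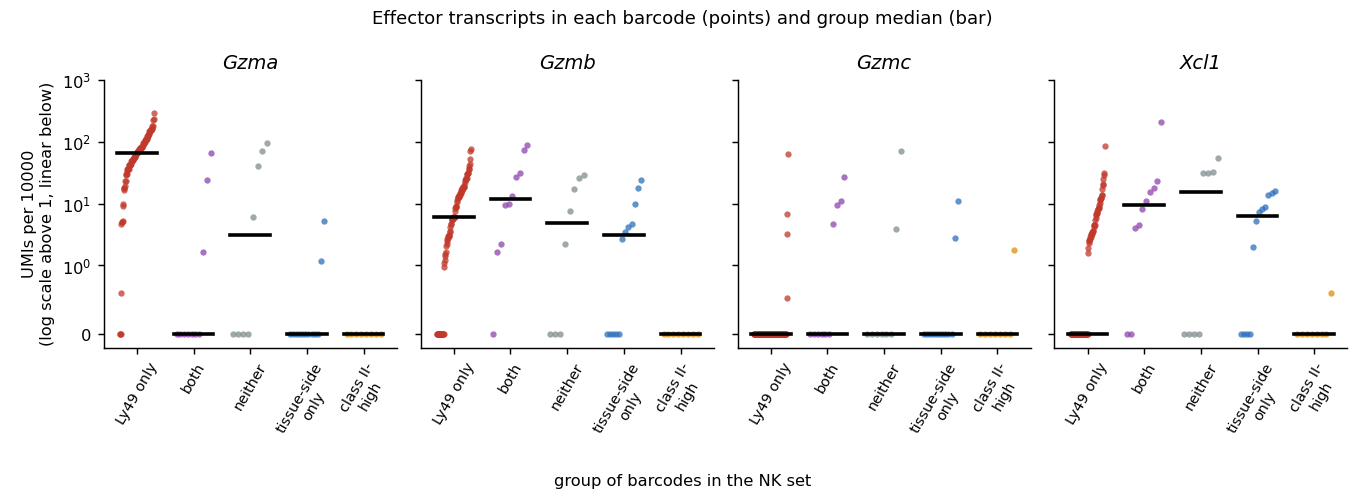
UMIs per 10000 of Gzma, Gzmb, Gzmc and Xcl1 in each barcode (points) of the 5 groups of the NK set (tissue-side stands for the ILC1-side genes), with the group median as a bar, on a scale that is logarithmic above 1 and linear below. Gzma is found in 88 of the 91 cells with Ly49 genes only and in 2 of the 12 cells with ILC1-side genes only, and the class II-high barcodes lack it.

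Interferon-stimulated genes were lower in NK cells than in the T cells beside them. Of 21 compared, 0 were higher and 11 lower than in CD8 T cells, with a median log2 ratio of -1.17. Without class II-high barcodes 14 were lower and the median was -1.73, and under TMM 13 of 21 were lower. Against CD4 T cells 8 were lower and 0 higher, or 13 and 0 without class II-high barcodes. Ifi27l2a was at 171 CPM (143 to 202) in NK cells, 1914 CPM in CD8 T cells and 2715 CPM in CD4 T cells. Isg15, a ubiquitin-like protein gene, was at 159 against 487 CPM in CD8 T cells, and at 44.5 CPM without class II-high barcodes, which held it at 979 CPM. Ifit3, an antiviral gene, was at 33.9 against 226 CPM. The interferon receptor genes were near equal, with Ifnar1 at 72.9 against 71.8 CPM and Ifnar2 at 97.7 against 91.6 CPM. Against Calca-high cells 7 of 21 were higher and 0 lower, with a summed log2 ratio of 0.57 (0.47 to 0.68). Without class II-high barcodes 4 of 20 were higher and 3 lower (Ifit1, Isg15 and Rsad2), and the summed log2 ratio was 0.07 (-0.05 to 0.20).

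**Figure D5:**
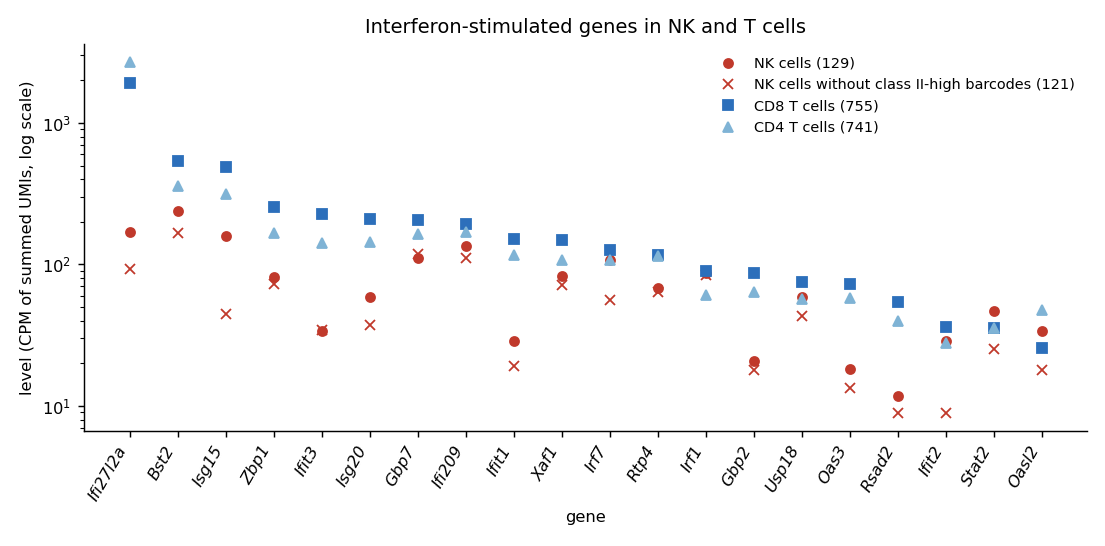
Levels in CPM on a log scale of 20 interferon-stimulated genes in NK cells, NK cells without the class II-high barcodes, CD8 T cells and CD4 T cells (numbers of cells in the legend), ordered by the level in CD8 T cells. Ifi27l2a lies furthest apart on the log scale from CD8 T cells, at 171 CPM in NK cells against 1914 and 2715 CPM in the T cells.

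Cell cycle genes were also lower than in CD8 T cells. Of 20 compared 13 were lower and 0 higher, with a median of -1.47, and 15 were lower under TMM. Summed, the list was at 1889 CPM against 2761 CPM, a log2 ratio of -0.55 (-0.63 to -0.47). Mki67, a proliferation marker, had 1 UMI in 1 NK cell, or 1.30 CPM, against 80.1 CPM in CD8 T cells (log2 -5.94, -11.25 to -3.46). Birc5, Rrm2 and Ccna2 had no UMI in NK cells and stood at 43.2, 27.6 and 13.0 CPM in CD8 T cells. Top2a was at 22.1 against 120 CPM. Against CD4 T cells 4 of 18 were lower and 1, Mcm6, was higher. The sum was near equal there, at 1889 against 1842 CPM (log2 0.04, -0.05 to 0.12). Against Calca-high cells 2 of 12 were lower and 0 higher, with a median of -0.13. The rule asks for no Cd3 UMI in NK cells and for at least 2 in T cells, and the median depth was 4899 UMIs in NK cells and 6331 in CD8 T cells. Whether this choice by depth takes part in the cell cycle counts was not tested.

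Early activation genes, which respond within minutes and also to tissue dissociation, had 6 of 22 higher and 0 lower than in CD8 T cells, with a median of 0.61. They were Junb, Nr4a1, Nr4a2, Nr4a3, Dusp1 and Btg2. Junb and Btg2 were at 784 and 691 CPM against 390 and 303 CPM. Under TMM Junb and Btg2 no longer passed, and under the median of ratios Nr4a2 did not either, while Irf4 passed on the lower side. Against CD4 T cells 2 of 21 were higher (Nr4a2 and Dusp2) and 1 lower (Fosb). Against Calca-high cells 3 of 21 were higher and 8 lower, with a summed log2 ratio of -0.97 (-1.03 to -0.92). Of 7 glucocorticoid-responsive genes 3 were higher than in CD8 T cells (Tsc22d3, Per1 and Klf9), with Tsc22d3 at 298 against 146 CPM, and it did not pass under TMM. Against CD4 T cells 1 of 7 was higher (Klf9) and 0 lower. Against Calca-high cells 1 was higher (Tsc22d3) and 2 were lower (Klf9 and Txnip). Of 14 genes of glycolysis 0 passed 2-fold in either direction against CD8 T cells, with a median of -0.10. Under TMM Aldoa and Slc2a3 were lower, and Aldoa was lower without class II-high barcodes. Of 11 genes of MHC class I presentation 1, Nlrc5, was lower, with B2m at 2578 against 3231 CPM. Without class II-high barcodes the lower ones were Tap2 and Psmb9 instead.

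By the size of the ratio alone, the 15 genes furthest above CD8 T cells among those with at least 50 UMIs in NK cells included the Ly49 genes Klra8, Klra4, Klra9, Klra7 and Klra3 and the lectin receptors Klrb1a, Klrb1f and Klri2. The others were Khdc1a, Nrgn, Sulf2, Spry2, Rbpms, Clnk and Styk1. Khdc1a had 60 UMIs in 27 NK cells and 0 in CD8 T cells, at least 138-fold higher with the same floor. Spry2, an inhibitor of receptor kinase signals, was at 130 against 4.53 CPM and was found in 45 cells. Styk1 was at 120 against 5.10 CPM and Clnk, an adaptor of immune receptors, at 65.1 against 2.64 CPM. At the other end stood Cd8a and Cd8b1, which chose the CD8 T cells, and T cell genes such as Cd5, Cd6, Trac, Themis, Sit1, Slamf1 and Bcl11b. Themis had 0 UMIs in NK cells against 136 CPM, at least 34.8-fold lower. Mki67, Pclaf, Hist1h2ab, Ifit1bl1, BE692007 and Gm8369 completed that end.

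The partners that NK cells could meet were measured in the other sets. Il15, the survival factor of NK cells, was at 7.06 CPM in C1q-high cells and 3.28 CPM in the CD45-negative library, and its presenting chain Il15ra at 41.3 and 34.4 CPM. Il18 was at 33.4 CPM in C1q-high cells and 74.3 CPM in the CD45-negative library. Il12b was at 6.69 CPM in other class II-high barcodes and 0.948 CPM in C1q-high cells. Of the stress ligands of NKG2D, Ulbp1 was at 10.7 CPM in C1q-high cells and 0.296 CPM in the CD45-negative library, and Raet1d, Raet1e and H60b were each under 1 CPM in both. Flt3l, a dendritic cell growth factor gene, was at 50.8 CPM in NK cells and 14.7 CPM in all other kept CD45-positive barcodes.

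Markers of the other brain and blood cell types were summed in the NK set. Of the 10 microglia markers 3 are the C1q genes that the rule capped. The 7 others summed to 442.7 CPM in NK cells and 437.6 CPM in CD8 T cells, a log2 ratio of 0.02 (-0.15 to 0.18), and 0 of the 7 passed 2-fold. CD8 T cells were held to the same C1q cap, and the part of that shared cap in these near-equal sums was not tested. The 8 monocyte markers, of which F13a1 was at 0, summed to 1190 CPM with class II-high barcodes and to 809 CPM without them. They summed to 3399 CPM in CD8 T cells and 1065 CPM in CD4 T cells. Of 7 compared with CD8 T cells, 2 were higher (Arg1 and Ms4a6c) and 1 lower (Ly6c2), with a median log2 ratio of 0.72. Without class II-high barcodes 1 was higher (Arg1) and 2 were lower (Ly6c2 and Plac8), with a median of 0.22. Neutrophil markers came to 15.6 CPM in NK cells against 26.4 CPM in CD8 T cells, and oligodendrocyte markers to 89.8 against 90.3 CPM. Their part in the levels of genes that NK cells share with microglia or monocytes, such as Tyrobp, Fcer1g, Irf8, Ccl3 and Ccl4, was not tested.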

How the data were processed

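Brain cells were measured by 10x Genomics 3' single-cell RNA sequencing in 1 CD45-negative and 1 CD45-positive library. The deposited values are UMI counts per gene and barcode, made by the authors with Cell Ranger 6.1.2 on mm10, per the submitters' processing notes. Its other settings were not given in the sources used here. The count files held 8662 CD45-positive barcodes with 76182401 UMIs and 14524 CD45-negative barcodes with 92691820 UMIs.

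From the counts, barcodes with at least 1000 UMIs and at most 20% mitochondrial UMIs were kept. In the CD45-positive library this left out 871 barcodes for depth and 54 for mitochondrial UMIs, some for both. UMIs were summed over each set of cells. Levels carry exact Poisson intervals, ratios exact conditional binomial intervals and shares Clopper-Pearson intervals, all at 95%. With 1 library per group no p-value was computed. Scrublet called 177 of 8662 barcodes, 2.04%, as doublets, and they were not removed. To compare shares of cells with a UMI, each cell was thinned to 1000 UMIs. The calculations were tested on simulated data.

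The members and gene lists were chosen with earlier results of these data known. Named genes were the rule's genes, the members of each list with the most UMIs, the largest ratios or a telling level near 0, the 15 highest and 15 lowest ratios to CD8 T cells with at least 50 UMIs, and the 15 largest Fano factors, of which mitochondrial and other housekeeping genes are not described. Of 363 listed genes 361 matched, and Hobit and Mx1 are not analysed here. A few listed genes count in the lists but are not reported here by name. Reads may be split within the Klra, Klrb1, Klrc and granzyme families. Gene positions are from GENCODE M21 and promoter windows from a RefSeq table of GRCm38.p6.

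Scrublet was run from scanpy 1.11.5, TMM factors came from edgeR 4.0.16 in R 4.3.3, and the rest was computed with numpy 2.4.6, pandas 2.3.3, scipy 1.17.1 and matplotlib 3.10.9 in Python 3.11.15.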

Additional observations from a re-analysis of the deposited data

How the results depend on the processing

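No alternative turned the direction of the 3 summed log2 ratios of NK over CD8 T cells. However, none of the alternatives left out single list members. Without Tyrobp and Fcer1g the adaptor sum would be lower in NK than in CD8 T cells, and most of the granule gap came from Gzma. The granule genes, at 0.75, came to 0.95 when 3 NK genes were required, 0.69 with 1 Cd3 UMI allowed, 0.68 with stricter CD8 T cells, 0.92 without class II-high barcodes, 0.55 with TMM, 0.55 with the median of ratios and 0.95 as a mean of cell shares. The adaptors, at 1.09, came to 1.18 with 3 NK genes, 1.02 with 1 Cd3 UMI allowed, 1.19 without class II-high barcodes, 0.90 with TMM and 0.89 with the median of ratios. The inhibitory list, at 1.50, came to 1.64 with 3 NK genes, 1.65 without class II-high barcodes, 1.30 with TMM and 1.30 with the median of ratios. The share of kept barcodes, at 1.66%, was 1.18% with 3 NK genes, 1.98% with 1 Cd3 UMI allowed and 1.21% with fewer than 10 C1q UMIs per 10000. The number of NK cells ran from 92 to 154. When every list member with 1 UMI was compared, the median of death ligands and cytokines turned from -0.27 to 0.28 and that of ligands on other cells from -0.33 to 0.049; the cause was not tested. Leaving out the class II-high barcodes was chosen after seeing the data. With 129 cells, a gene under 3.91 CPM in the NK set rests on fewer than 3 UMIs. No paired analysis was possible because each group has 1 library and no result comes from a test between samples.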
